A study of Mus musculus with 12 samples.

Results

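The 10 genes described here encode adhesion molecules by which the vessel wall holds and passes leukocytes, and their mRNA was read here in the endothelial and medial layers of mouse carotid arteries with and without Poldip2. The 10 members were all the rows of the deposited table, out of 35275, that carry the symbols Icam1, Icam2, Vcam1, Sele, Selp, Jam2, Jam3, F11r, Madcam1 and Alcam. The rule reads the symbols and no measured value. The mice were C57BL/6, 10 weeks old and on standard chow. Poldip2-/- mice lack exon 4 of Poldip2 in the whole body, after a floxed line derived from 1 embryonic stem cell clone was crossed with EIIa Cre, which acts in the early embryo. Controls were littermates without the knockout. From the carotid arteries of each genotype, a rapid flush of the lumen with Qiazol gave the endothelial layer, and the left-over vessel, with media and adventitia, gave what is called the medial layer. The labels list 2 endothelial and 4 medial samples of each genotype, whereas the methods speak of 4 replicates in every group.

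RNA-seq values were FPKM, fragments scaled to transcript length and to the sequencing total of the library, of which the table holds 1 deposited value for each of the 4 groups. These group values carry no replicate error, so nothing below was tested, and differences between groups are descriptions of these 4 values. The depth of each library is unknown here. Ratios were taken as log2 after adding 1 to each FPKM, which understates the change of low genes, while folds and percentages are plain ratios of FPKM. A gene was compared where the mean FPKM of the paired groups was at least 1, and a ratio of at least 2-fold on the log2 scale with 1 added was counted.

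Leukocytes leave the blood in steps. Selectins on activated endothelium catch the rolling cell, ICAM and VCAM family members then bind leukocyte integrins and hold it firmly, and junctional adhesion molecules (JAMs) together with PECAM1 take part in its passage between endothelial cells. Several of these genes, among them Icam1, Vcam1 and Sele, are classical targets of the transcription factor NF-kappaB in endothelium exposed to inflammatory cytokines. In large arteries their levels are of interest because monocyte capture is an early step of atherosclerosis.

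Endothelial markers were mostly higher in the endothelial layer and smooth muscle markers in the medial layer, which also held markers of other cells. Poldip2 mRNA was listed at 21.1 FPKM in control and 8.27 FPKM in Poldip2-/- endothelial layers, and at 35.9 and 10.3 FPKM in the medial layers, with all exons counted and not exon 4 alone. In controls, 14 of 15 endothelial markers were at least 2-fold higher in the endothelial layer and all 9 smooth muscle markers were at least 2-fold higher in the medial layer. In medial controls, fibroblast markers summed to 13374 FPKM, leukocyte markers to 3547 and fat cell markers to 2977, beside 5338 for smooth muscle markers. In medial Poldip2-/- samples these sums were 5575, 760, 741 and 20454 FPKM, so the makeup of the medial groups differed. The lists differ in length, and the sums are not shares of cells. Genes that arteries are taken not to use give a measure of how far a low FPKM can be read. Among 1248 olfactory receptor genes, the 95th percentile was 0.325 FPKM in control and 0.0684 FPKM in Poldip2-/- endothelial layers, and 1.56 and 0.0136 FPKM in the medial layers, so that a value near 1 means less in medial controls than elsewhere.

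NF-kappaB-type sequences can be seen in the bases just before the start sites of several of these genes. In RefSeq's promoter table for GRCm38.p6, 6 of the 10 members were matched (Icam1, Sele, Selp, F11r, Madcam1 and Alcam). The 250 bases before the start are shown for 5 of them, all but Alcam, 5′ to 3′ on the gene's own strand. Capitals mark every match, on either strand, to any of 4 motifs. A relaxed NF-kappaB site was searched in a shorter form, GGNNNTTCC, and in a longer form that begins with 3 guanines, goes on with 5 bases of any kind and ends with 2 cytosines. The others were the TATA box, spelled TATAAA, and the GC box on the promoters of many widely used genes, which was searched as GGGCGG. The lines are Icam1 at chr9:21015690-21015939 (+), Sele at chr1:164047984-164048233 (+), Selp at chr1:164115014-164115263 (+), F11r at chr1:171437311-171437560 (+) and Madcam1 at chr10:79664309-79664558 (+).
Icam1: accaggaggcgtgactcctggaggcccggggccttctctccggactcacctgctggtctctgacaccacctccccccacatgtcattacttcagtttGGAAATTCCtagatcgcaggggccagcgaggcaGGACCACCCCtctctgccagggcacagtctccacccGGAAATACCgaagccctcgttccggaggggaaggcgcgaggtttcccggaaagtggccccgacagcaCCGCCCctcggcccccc
Sele: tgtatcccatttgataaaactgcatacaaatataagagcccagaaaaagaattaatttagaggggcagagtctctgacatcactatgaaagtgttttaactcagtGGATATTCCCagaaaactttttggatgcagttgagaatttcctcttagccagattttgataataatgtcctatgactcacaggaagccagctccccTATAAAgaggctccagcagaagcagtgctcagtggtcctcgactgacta
Selp: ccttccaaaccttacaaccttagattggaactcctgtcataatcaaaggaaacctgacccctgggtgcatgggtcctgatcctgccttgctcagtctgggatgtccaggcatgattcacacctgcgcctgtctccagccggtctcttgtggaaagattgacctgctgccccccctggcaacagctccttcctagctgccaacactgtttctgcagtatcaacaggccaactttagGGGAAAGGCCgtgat
F11r: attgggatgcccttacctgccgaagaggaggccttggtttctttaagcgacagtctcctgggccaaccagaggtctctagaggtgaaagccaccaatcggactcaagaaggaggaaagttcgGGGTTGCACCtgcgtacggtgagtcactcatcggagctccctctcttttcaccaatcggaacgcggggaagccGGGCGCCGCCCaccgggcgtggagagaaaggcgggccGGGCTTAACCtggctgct
Madcam1: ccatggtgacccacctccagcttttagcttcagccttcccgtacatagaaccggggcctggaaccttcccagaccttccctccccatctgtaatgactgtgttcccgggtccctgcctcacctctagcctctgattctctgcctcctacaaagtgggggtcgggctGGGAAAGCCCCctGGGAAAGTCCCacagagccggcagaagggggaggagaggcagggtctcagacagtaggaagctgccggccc
In the Icam1 window, GGAAATTCC began 153 bases before the start, and reads as a match on both strands. Another match on the other strand, GGTATTTCC, lay 84 bases before the start and a match to the longer form, GGGGTGGTCC, 120 bases before it, with distances always counted to the first base on the gene's own strand. The Sele window held GGATATTCC at 145 bases before the start, where the match to the longer form on the other strand covers the same bases, and TATAAA at 49 bases before. In Selp the forms overlapped as well, within the 15 bases before the start. Madcam1 held clustered, overlapping matches that began between 84 and 70 bases before its start, among them GGGACTTTCC on the other strand. F11r matched the longer but not the shorter form. Alcam, whose window is not shown, matched neither form and held GGGCGG alone of the motifs searched. GGNNNTTCC was found in 4 of the 6 matched windows and in 15.7% of all 32851 windows of the table, and the longer form in 5 of 6 and in 45.8% of all windows. TATAAA was present in 1 of 6 (12.4% of all) and GGGCGG in 3 of 6 (32.7% of all). These matches are descriptions of letters and do not show binding.

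Endothelial layers were rich in firm-adhesion, rolling and junction molecules in both genotypes. Icam2 and Vcam1 were the members with the highest level per length, followed in controls by Selp, F11r, Icam1 and Jam2 and in Poldip2-/- mice by F11r, Icam1, Selp and Jam2, all above 100 FPKM. Sele and Jam3 lay near 10 FPKM or below, Alcam near 1, and Madcam1 was not above the level of unused genes. Summed over the 10 members, the endothelial layer held 1698 FPKM without and 1793 FPKM with the knockout, against 159 and 121 FPKM in the medial layer. The members follow by role. The plot of group FPKM by gene shows all 4 values of each member.

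**Figure D1:**
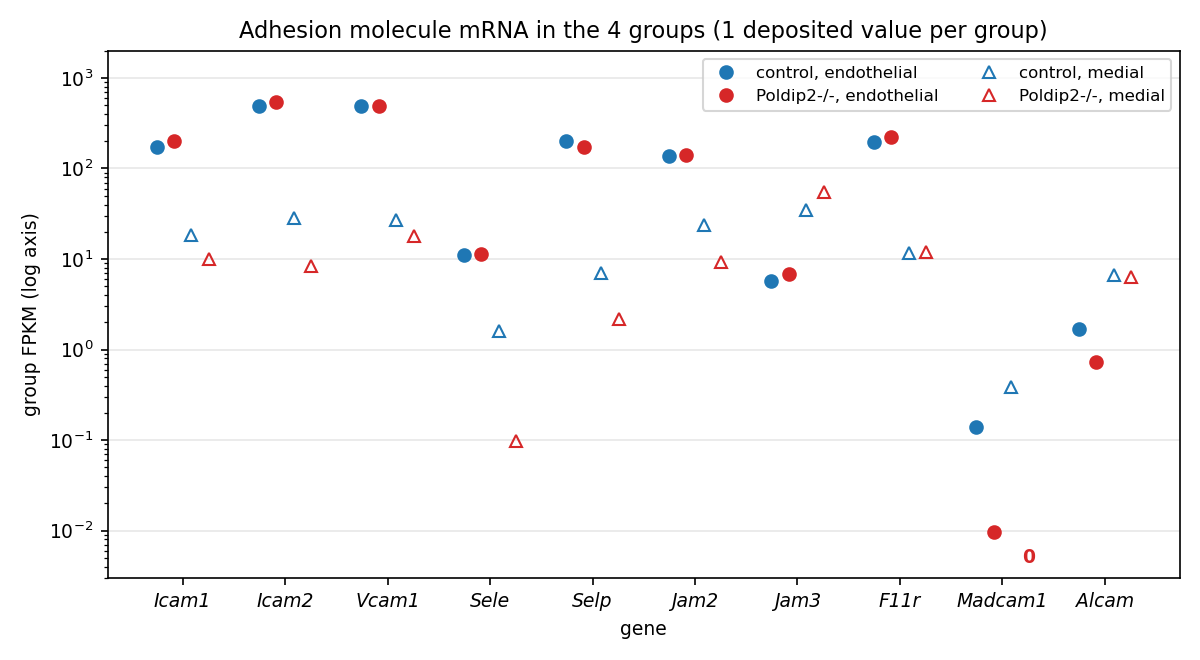
Group FPKM (log axis) of each of the 10 genes, filled circles for the endothelial and open triangles for the medial layer, blue for control and red for Poldip2-/-; each point is 1 deposited value without an error and the digit 0 marks Madcam1 listed at 0. Endothelial values of the genotypes lie close together except for Alcam (1.70 and 0.725) and Madcam1 (0.139 and 0.00954), while Icam2, Sele, Selp and Jam2 differ more in the medial layer, and Jam3 and Alcam lie higher in the medial layer.

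Icam2, a constitutive endothelial ligand of the leukocyte integrin LFA-1, lies on chromosome 11 (GRCm38, 106377656 to 106388075, minus strand, ENSMUSG00000001029). It was listed at 492 FPKM in control and 545 FPKM in Poldip2-/- endothelial layers, and at 28.2 and 8.42 FPKM in the medial layers. The endothelial values thus lay close together, at a log2 ratio of 0.15, and the medial value of Poldip2-/- mice was 3.35-fold lower, at -1.63. The study used Icam2 as an endothelial marker on these samples, so its layer pattern is no independent check. Icam1, an inducible ligand of LFA-1 and Mac-1, lies on chromosome 9 (21015960 to 21028797, plus strand). Its values were 171 and 199 FPKM in control and Poldip2-/- endothelial layers, and at 18.5 and 9.94 FPKM in the medial layers. The medial value was 1.86-fold lower in Poldip2-/- mice, short of the 2-fold mark at -0.83, and the endothelial value was 1.17-fold higher at 0.22. Icam1 shares exon bases with a gene on the other strand, Gm47079, in the GENCODE annotation, and the library kit is not described as keeping strand, so the reads of such pairs cannot be told apart. Gm47079, and likewise Gm43109 and Gm48796 named below, were not analysed here.

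Vcam1 encodes the ligand of the integrin VLA-4 on monocytes and lymphocytes and lies on chromosome 3 (116110020 to 116129688, minus strand). Vcam1 stood at 486 and 493 FPKM in the endothelial layers of control and Poldip2-/- mice, a log2 ratio of 0.02, and at 27.0 and 17.9 FPKM in the medial layers, a ratio of -0.56. Exons of Gm43109 on the other strand overlap Vcam1. Madcam1, the mucosal addressin that binds the integrin of gut-homing lymphocytes, lies on chromosome 10 (79664574 to 79668536, plus strand). Its values were 0.139 and 0.00954 FPKM in the endothelial layers and at 0.389 and 0 FPKM in the medial layers, in every group below the 95th percentile of unused genes. No fold is given for it.

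Selectins lie side by side on chromosome 1. Selp, the P-selectin that endothelium stores and moves to its surface on activation and that platelets carry too, spans 164115264 to 164150026 on the plus strand. It was listed at 200.03 and 173 FPKM in the endothelial layers of control and Poldip2-/- mice, a log2 ratio of -0.21, and at 6.93 and 2.17 FPKM in the medial layers. The medial value of Poldip2-/- mice was 3.20-fold lower, at -1.32. Exons of Gm16587 and Gm16548 on the other strand overlap Selp, and these were listed at no more than 1.48 FPKM in any group. Sele, the E-selectin made by endothelium after cytokine exposure, spans 164048234 to 164057677 on the plus strand. Sele stood at 10.9 and 11.4 FPKM in the endothelial layers, far below Selp, at a ratio between genotypes of 0.06. In the medial layers Sele was listed at 1.59 FPKM in controls, beside a 95th percentile of 1.56 FPKM for unused genes there, and at 0.0984 FPKM in Poldip2-/- mice, where that percentile was 0.0136 FPKM. The mean of 0.846 FPKM fell under the minimum, the unused genes moved the same way, and their part in this difference was not tested.

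Jam2 (JAM-B), F11r (JAM-A) and Jam3 (JAM-C) encode related immunoglobulin-domain proteins of cell junctions that bind one another and leukocyte integrins. Jam2 lies on chromosome 16 (84774123 to 84825928, plus strand) and was listed at 137 and 141 FPKM in the endothelial layers of control and Poldip2-/- mice, a log2 ratio of 0.05. In the medial layers Jam2 was listed at 23.5 and 9.29 FPKM, 2.52-fold lower in Poldip2-/- mice, at -1.25. F11r lies on chromosome 1 (171437535 to 171464603, plus strand) and was listed at 194 and 222 FPKM in the endothelial layers, a ratio of 0.20. Its medial values were 11.6 and 11.8 FPKM, a ratio of 0.03, so that among the endothelial-rich members F11r alone was not lower in medial Poldip2-/- samples. Jam3 lies on chromosome 9 (27097385 to 27155421, minus strand, with exons of Gm48796 on the other strand) and had the opposite layer pattern. Jam3 was listed at 5.71 and 6.86 FPKM in the endothelial layers and at 34.8 and 55.0 FPKM in the medial layers, 1.58-fold higher in medial Poldip2-/- samples at 0.65.

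Alcam encodes a ligand of the T cell receptor CD6 that also binds itself, and lies on chromosome 16 (52248996 to 52454074, minus strand). Alcam stood at 1.70 and 0.725 FPKM in the endothelial layers of control and Poldip2-/- mice, and at 6.63 and 6.41 FPKM in the medial layers. The endothelial log2 ratio of -0.65 was the lowest of the members there, from 2.34-fold lower FPKM at a low level. Fibroblast markers were lower with it in this layer, 10 of 11 by at least 2-fold, beside 1.44% of all genes compared. Their summed levels were 1554 and 857 FPKM, and their part in the difference was not tested. The medial ratio of Alcam was -0.04, where 9 of 11 fibroblast markers were at least 2-fold lower (13374 and 5575 FPKM in sum), beside 14.3% of all genes.

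Between layers, 7 of the 9 members compared were at least 2-fold higher in the endothelial layer of controls, where 12.1% of 13354 genes compared were, and Jam3 and Alcam were at least 2-fold lower there (20.2% of genes). The same 7 were higher in Poldip2-/- mice, against 13.3% of 12140 genes, and the same pair lower (14.1%). Of all genes past 2-fold in controls, 37.4% were higher in the endothelial layer, and 56.9% on scaled read counts, where the median gene lay at 0.30 in place of -0.10. The 7 and the 2 members were counted alike on both scales. Controls placed Selp at 28.8-fold, Vcam1 at 18.0-fold, Icam2 at 17.4-fold, F11r at 16.8-fold, Icam1 at 9.22-fold, Sele at 6.86-fold and Jam2 at 5.82-fold. In Poldip2-/- mice these folds were 79.5 for Selp, 27.5 for Vcam1, 64.7 for Icam2, 18.8 for F11r, 20.1 for Icam1 and 15.2 for Jam2. That of Sele was 116, against a medial value of 0.0984 FPKM. Jam3 was 6.09-fold lower in the endothelial than in the medial layer of controls and 8.02-fold lower in Poldip2-/- mice, and Alcam 3.91-fold and 8.84-fold lower.

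Seen from the medial side, the left-over vessel of controls kept from 3.47% (Selp) to 17.2% (Jam2) of the endothelial FPKM of the 7 endothelial-rich members, with a median of 5.96%. In Poldip2-/- mice the share ran from 0.862% (Sele) to 6.59% (Jam2), with a median of 3.64%, and was lower for each of the 7, least so for F11r at 5.96% and 5.31%. The mean of the medial values of Sele lay under the minimum, and the control value was near the level of unused genes. Without Sele the medians were 5.85% and 4.31%, the lowest share in Poldip2-/- mice was 1.26% (Selp), and the share was lower for the 6 members left. Leaving out Sele, and taking genes by their control levels alone, were choices made after seeing the data. Of 14 endothelial markers taken by the same rule, at least 2-fold higher in the endothelial layer of controls, 10 had a lower share in Poldip2-/- mice, and the median was 5.24% in controls and 2.29% in Poldip2-/- mice. The other 4, named after their values were seen, were Esam, Robo4, Erg (20.7% and 51.3%) and Flt1 (19.4% and 92.1%). Of 8 other surface molecules of leukocyte traffic taken by this rule, some of them also markers, 4 had a lower share. Their medians were 6.92% and 4.45%. Such shares were not computed over all endothelial-rich genes. Over 10920 genes compared in both layers, the medial minus endothelial log2 ratio of genotypes had a median of -0.18. Fewer endothelial cells left in the medial layer and less RNA per cell cannot be told apart in these bulk values. FPKM is also scaled to the sequencing total, and other cells of the medial layer differed between genotypes. Smooth muscle markers summed to 5338 and 20454 FPKM in medial control and Poldip2-/- samples, and fat cell markers to 2977 and 741 FPKM. The part of these cells in the medial shares was not tested.

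**Figure D2:**
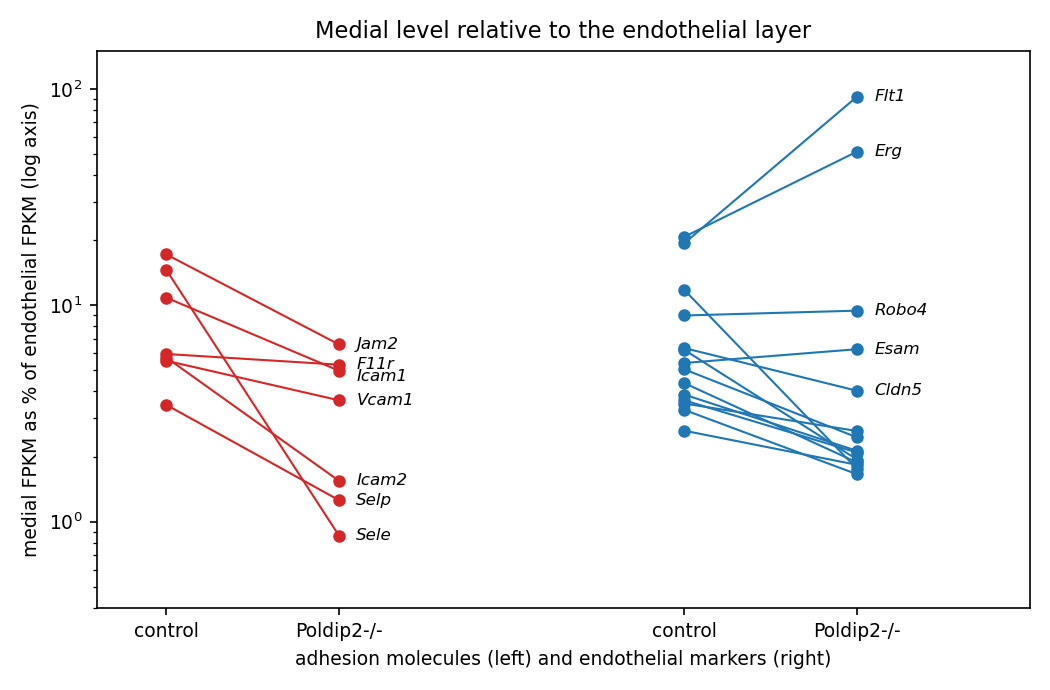
Medial FPKM as a percentage of endothelial FPKM (log axis) in control and Poldip2-/- arteries, 1 line per gene, for the 7 adhesion molecules (red) and 14 endothelial markers (blue, the 5 highest in Poldip2-/- arteries named) that were at least 2-fold higher in the endothelial layer of controls. The lines of all 7 adhesion molecules go down, that of F11r only from 5.96% to 5.31%, and those of 10 of the 14 markers, while Flt1, Erg, Robo4 and Esam go up.

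In the endothelial layer, the comparison of genotypes asked what loss of Poldip2 does to these mRNAs where most of them are made. None of 9 members was at least 2-fold higher or lower in Poldip2-/- mice, against 0.434% of 11514 genes higher and 1.44% lower, shares so small that a count of 0 among 9 is not set apart from them. Of all genes past 2-fold, 23.1% were higher, and 47.3% relative to the median of endothelial markers, a scale chosen after seeing the data. The log2 ratios ran from -0.65 (Alcam) to 0.23 (Jam3), with a median of 0.06 beside 0.05 over all genes compared. By ratio, Jam3 and Icam1 stood above 83.0% and 82.5% of these genes, Selp above 15.9% and Alcam above 2.88%. Icam2, Vcam1, Sele, Jam2 and F11r lay between the positions of Selp and Icam1. Endothelial markers had a median log2 ratio of -0.20 in this layer, with 9 of 15 below 0, beside 4780 of 11514 genes. Relative to the median of these markers, the members' median was 0.25, from -0.45 (Alcam) to 0.43 (Jam3). Icam1 then lay at 0.42, F11r at 0.39 and Icam2 at 0.35. No member was past 2-fold on that scale, beside 0.834% of genes higher and 0.929% lower. Smooth muscle markers were higher in the same layer, 3 of 6 by at least 2-fold (165 and 464 FPKM in sum), and their part in the ratio of Jam3 was not tested.

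In the medial layer, 3 of 8 members compared, Icam2, Selp and Jam2, had at least 2-fold lower values with the knockout, beside 14.3% of 13082 genes, and none was at least 2-fold higher, beside 7.22%. The median log2 ratio of the members was -0.70 and that of all genes -0.17. Icam2 stood above 5.92% of genes in its ratio, Selp above 9.43%, Jam2 above 10.3%, Icam1 above 18.3%, Vcam1 above 27.3%, Alcam above 57.9%, F11r above 62.4% and Jam3 above 87.0%. On the authors' group means of scaled read counts the median gene lay at 0.03 in place of -0.17, and there Icam2, Selp and Jam2 were again past 2-fold, while the small ratio of Alcam turned from -0.04 to 0.19. Of all genes past 2-fold, 33.5% were higher in Poldip2-/- mice, and this share was 45.2% after centring on the median gene, 50.9% after centring by gene length, 47.0% on scaled read counts and 81.7% relative to endothelial markers. Endothelial markers were also lower in this layer, 10 of 13 compared with a ratio below 0, beside 7932 of 13082 genes. Their median was -0.68 and their summed levels were 182 and 124 FPKM in control and Poldip2-/- samples. Fat cell markers were lower too, 7 of 9 by at least 2-fold, with a median of -1.71 and summed levels of 2977 and 741 FPKM, and the part of fat tissue, which has endothelium of its own, in the medial values was not tested. Expressed relative to the median of endothelial markers, Icam2 lay at -0.95, Selp at -0.64, Jam2 at -0.57 and Icam1 at -0.15. Vcam1 lay at 0.12, Alcam at 0.64, F11r at 0.71 and Jam3 at 1.33. No member was then 2-fold lower, beside 5.13% of 13082 genes, and Jam3 was past 2-fold higher, beside 22.9% of genes.

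**Figure D3:**
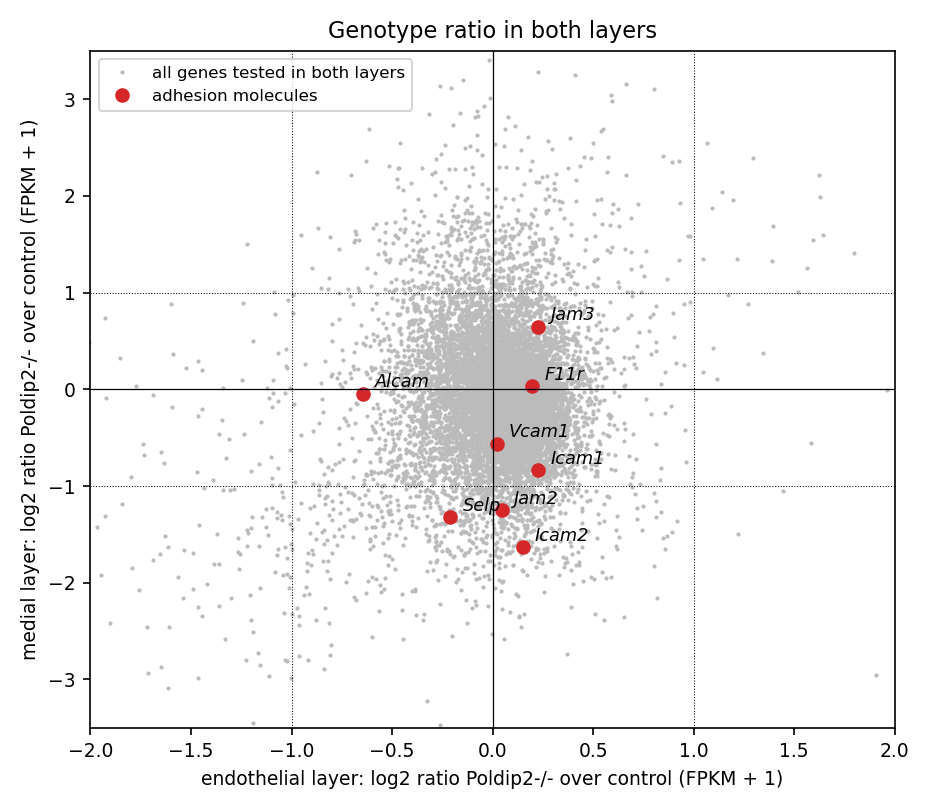
Log2 ratio of Poldip2-/- to control FPKM, with 1 added, in the endothelial (horizontal) and medial (vertical) layer for 10920 genes compared in both (grey, 36 of them outside the axes) and 8 adhesion molecules (red); dotted lines mark 2-fold. The members spread along the vertical axis from -1.63 (Icam2) to 0.65 (Jam3) and, Alcam aside, stay within 0.23 of 0 on the horizontal axis.

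The difference between layers, medial minus endothelial log2 ratio, had a median of -0.82 over 8 members and of -0.18 over 10920 genes compared in both layers, whose 5th and 95th percentiles were -1.24 and 1.21. It was -1.78 for Icam2, below the 5th percentile, -1.29 for Jam2, also below it, -1.11 for Selp, -1.06 for Icam1, -0.58 for Vcam1, -0.17 for F11r, 0.42 for Jam3 and 0.60 for Alcam. With single samples not tied to a genotype, this difference was not tested.

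Patterns most like those of the members, by the distance between log2(FPKM + 1) values over the 4 groups after centring each gene, came from 7179 protein-coding genes. Nearest to Icam1 was Slc9a3r2, which encodes a PDZ scaffold protein, at a distance of 0.09 and with 410 and 473 FPKM in the endothelial layers and 45.5 and 23.3 FPKM in the medial layers. For Icam2 the nearest gene with a known role was Gcnt1 at 0.24, which encodes the branching enzyme of selectin ligands, after AU021092 at 0.18. Vcam1 was nearest to Gpr56 (0.09), an adhesion G protein-coupled receptor, and to Sox17 (0.15), a transcription factor of arterial endothelium. Selp was nearest to Pkn3, Bmp6 and Gja5, the last of which encodes connexin 40 of arterial endothelium. Jam2 was nearest to Afap1l1, Ass1 and Card10, and Sele to Raet1e, Apol9a and Klf2, the shear-responsive transcription factor. F11r was nearest to Esam at 0.20, another immunoglobulin-domain protein of endothelial junctions, which was listed at 511 and 546 FPKM in the endothelial layers and at 27.7 and 34.2 FPKM in the medial layers. Jam3 was nearest to Oxct1, a mitochondrial enzyme of ketone use, at 0.11. With 4 values a gene, such likeness is a description.

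Among 19 other surface molecules of leukocyte traffic found in the table, 16 were compared in the medial layer. Of these, 2 were at least 2-fold higher and 4 lower, with a median of -0.10. Over all genes compared there, 7.22% were higher and 14.3% lower, with a median of -0.17. The higher pair were Mcam, which endothelium and mural cells carry, from 34.5 to 337 FPKM, and Aoc3 (vascular adhesion protein 1, an amine oxidase also made by smooth muscle), from 9.87 to 86.5 FPKM. Aoc3 was listed at 0.190 and 0.288 FPKM in the endothelial layers. All 9 smooth muscle markers were at least 2-fold higher in this layer, with summed levels of 5338 and 20454 FPKM, and their part in the values of Mcam, Aoc3 and Jam3 was not tested. Lower ones included Cd34, a sialomucin that fibroblasts also carry, from 480 to 131 FPKM, and the lymphatic hyaluronan receptor Lyve1 from 82.7 to 27.4 FPKM. In the endothelial layer none of 14 was past 2-fold, beside 0.434% of genes higher and 1.44% lower, with a median of 0.05.

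On the leukocyte side, 4 of 6 counter-receptor genes compared had at least 2-fold lower medial values with the knockout and 1 had higher. Over all genes compared there, 14.3% were lower and 7.22% higher. The median of the 6 was -1.28. Selplg, the ligand of P-selectin, went from 12.1 to 3.19 FPKM and Itgb2, the shared chain of LFA-1 and Mac-1, from 14.3 to 4.97 FPKM. The higher gene was Itgb1, an integrin chain that most cells of the wall carry, from 162 to 529 FPKM. Leukocyte markers moved with the lower genes, with 10 of 12 at least 2-fold lower and summed levels of 3547 and 760 FPKM. Macrophages also make Icam1, and the part of these cells in its medial values was not tested. Platelet markers, which bear on Selp, summed to 684 and 185 FPKM in medial samples, nearly all from Pf4 at 674 and 181 FPKM, with 2 of 4 compared at least 2-fold lower. Itga2b stood at 1.98 and 0.668 FPKM, and the glycoprotein gene Gp1bb, named after its values were seen, at 1.63 and 1.70 FPKM. Both control values were near the 95th percentile of unused genes there, 1.56 FPKM. The part of platelets in the medial values of Selp was not tested. In the endothelial layer none of 5 counter-receptor genes and none of 8 leukocyte markers was past 2-fold, with medians of -0.03 and 0.03.

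Regulators upstream of adhesion molecules were compared in the same way. Over all genes compared, 0.434% were at least 2-fold higher and 1.44% lower in the endothelial layer. In the medial layer these shares were 7.22% and 14.3%. Of 14 genes of NF-kappaB factors and their inhibitors, none was past 2-fold in either layer, with medians of 0.01 in the endothelial and -0.20 in the medial layer. Rel had the lowest medial ratio among them, -0.67 with 1 added, from 1.64 to 0.664 FPKM. Rela, the p65 subunit, was listed at 110 and 99.6 FPKM in the endothelial layers and at 58.8 and 73.3 FPKM in the medial layers, and Nfkbia, an inhibitor that NF-kappaB itself induces, at 119 and 116 FPKM and at 82.8 and 70.9 FPKM. Of 12 receptor and adaptor genes for cytokines and microbial products, none was past 2-fold in the endothelial layer, and Tnfrsf1b, the second TNF receptor, was alone past 2-fold lower in the medial layer, from 14.6 to 5.85 FPKM. Among 10 transcription factor genes of endothelium, Klf4 was at least 2-fold lower in the endothelial layer, from 69.7 to 32.0 FPKM, and Klf2, of 9 compared, in the medial layer, from 81.3 to 36.7 FPKM. Selectin ligand enzymes had a median of 0.09 in the endothelial and -0.67 in the medial layer. In the medial layer 3 of 8 were at least 2-fold lower, beside 14.3% of all genes. Among the 3 was Gcnt1, from 4.83 to 1.37 FPKM.

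**Figure D4:**
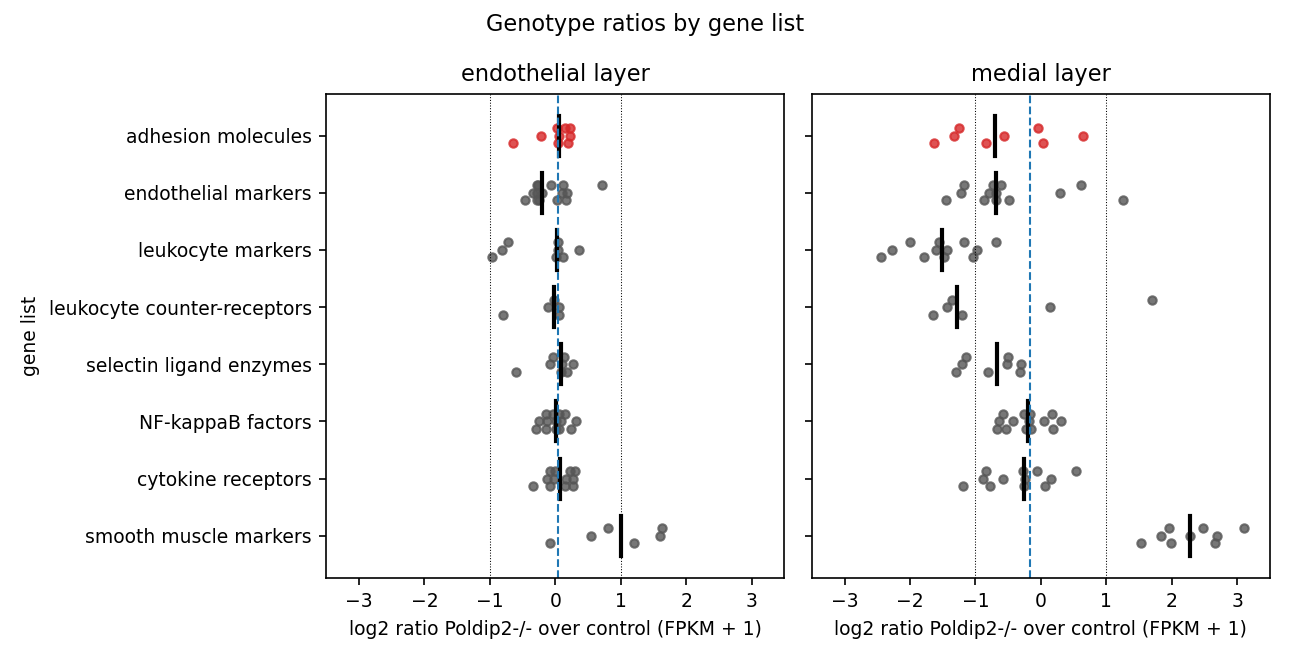
Log2 ratio of Poldip2-/- to control FPKM, with 1 added, of single genes (points) in 8 gene lists, in the endothelial (left) and medial layer (right); black bars are list medians, the dashed blue line is the median of all genes compared and dotted lines mark 2-fold. In the medial layer the adhesion molecules (median -0.70) and endothelial markers (-0.68) lie to the left of all genes (-0.17), and leukocyte markers (-1.51) further left.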

How the data were processed

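RNA of endothelial and medial layers was sequenced from both ends after capture on poly-T beads. Per the methods, alignment was to mm9 by TopHat 2.0.12, with Bowtie 2.2.3 for the index, and the authors deposited gene abundance as FPKM. How replicates gave 1 FPKM per group is not given in the sources used here. STAR 2.5, HTSeq 0.6.1, edgeR 3.16.5 and STAR-Fusion also appear in the submitters' processing notes. The gene coordinates deposited by the authors equal those of GENCODE M21 on GRCm38 for 24912 of 34490 shared gene IDs, so they are given as GRCm38. The deposited group means of scaled read counts, which the authors made with DESeq2 1.18.0 for each pair of groups, served as an alternative. Fold changes, p-values and adjusted p-values of the authors' 6 comparisons were not used. Nor were 24 columns of single samples, whose animal numbers the labels do not tie to a genotype. The planned fit to counts of single samples could therefore not be made.

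Members and lists were chosen with earlier results of these data known. Of 191 list entries, 185 were found in the table. Named genes are all members, Poldip2, at most the 4 highest and the 4 most different genes of each list, and the 3 nearest patterns among protein-coding genes with at least 10 FPKM in some group. Alternatives were a pseudocount of 0.1, no minimum or 5 FPKM, a 1.5-fold mark, centring on the median gene or within 20 bins of gene length, scaled read counts and protein-coding genes alone. Computations used Python 3.11.15, numpy 2.4.6, pandas 2.3.3 and matplotlib 3.10.9 and were tested on simulated data.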

Additional observations from a re-analysis of the deposited data

How the results depend on the processing

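No paired analysis was possible because only pooled values of each group were tied to the labels, and for the same reason no replicate could be left out. Of 293 log2 ratios of members recomputed under an alternative, 279 moved by less than 1.5-fold, 14 by more and 0 changed the sign of a ratio past 2-fold. No minimum, a minimum of 5 FPKM, a 1.5-fold mark and protein-coding genes alone leave each ratio as it was, by construction. Their unchanged ratios are among the 279, so this count overstates how stable the ratios were. In the endothelial layer, 1 member (Alcam) in place of 0 was lower in Poldip2-/- mice with a pseudocount of 0.1, with a 1.5-fold mark or on scaled read counts. In the medial layer, 1 member (Jam3) was higher with a 1.5-fold mark, and the 3 lower members became 4 with that mark (Icam1 added) or with no minimum (Sele added) and 2 with a minimum of 5 FPKM (Selp no longer compared). Relative to the endothelial markers, a scale added after seeing the data, 1 was higher, 0 were lower and the median log2 ratio was -0.017. Over all 13082 genes on that scale, 22.9% were at least 2-fold higher and 5.13% lower. With a minimum of 5 FPKM, 1 member (Jam3) in place of 2 was lower in the endothelial than in the medial layer of either genotype, since Alcam was no longer compared.

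Counts over all genes moved more. In the endothelial layer, 50 genes were higher and 166 lower, against 94 and 253 with a pseudocount of 0.1, 100 and 260 on scaled read counts, 191 and 396 with a 1.5-fold mark, 27 and 89 with a minimum of 5 FPKM, and 96 and 107 relative to endothelial markers. Medial samples had 944 genes higher and 1877 lower, against 1885 and 3437 with a 1.5-fold mark, 1750 and 1971 on scaled read counts, 967 and 3325 with no minimum, 667 and 824 with a minimum of 5 FPKM, 1241 and 1196 centred by length, and 2998 and 671 relative to endothelial markers. Between layers, controls had 1613 higher in the endothelial layer and 2704 lower, against 3354 and 2537 on scaled read counts, 2928 and 4198 with a 1.5-fold mark and 1248 and 1244 with a minimum of 5 FPKM, and Poldip2-/- mice had 1617 and 1712, against 3019 and 2496, and 1221 and 1016, under these last alternatives. The cause was not tested. That single samples were not tied to a genotype limits every comparison, and in medial controls the level of unused genes limits the reading of Sele and Madcam1. Unused genes lay higher in medial controls than in medial Poldip2-/- samples, and the part of this background in the excess of lower medial genes was not tested.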

Other observations

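Junction partners of the JAMs, which were not described above, showed a further layer pattern. Of 13 such genes in the table, 10 were compared between layers in controls and 5 were at least 2-fold higher in the endothelial layer (12.1% of all genes compared) and 2 lower (20.2%). The higher ones included Cldn5 (claudin 5) at 154 against 9.79 FPKM, Ocln (occludin) at 34.4 against 2.13 FPKM, and the scaffold gene Tjp1 at 34.1 against 6.38 FPKM. The lower ones were Clmp at 0.369 against 7.77 FPKM and Pard6g, named after its values were seen, at 0.345 against 3.00 FPKM. In the medial layer of Poldip2-/- mice Ocln was listed at 0.308 FPKM and Cldn5 at 4.91 FPKM, while Tjp1 was at 7.97 FPKM, above its control value like F11r and Esam. None of 8 partners was past 2-fold between genotypes in the endothelial layer, beside 0.434% of genes higher and 1.44% lower, with a median of -0.14. These are values of single groups without replicate error.

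Lymphatic endothelium, which also carries Icam1 and Vcam1, has its own markers. Of these, Lyve1, Pdpn and Ccl21a were compared in the medial layer and were listed at 82.7, 20.5 and 10.9 FPKM in controls and at 27.4, 6.12 and 2.99 FPKM in Poldip2-/- mice, each at least 2-fold lower. Of 13082 genes compared there, 14.3% were at least 2-fold lower. Flt4, on the same list, stood at 11.9 and 11.5 FPKM in the endothelial layers and at 0.842 and 0.322 FPKM in the medial layers. The defining factor Prox1, named after its values were seen, was listed at 0.158 and 0.0157 FPKM in the medial layers. The 95th percentile of unused genes was 1.56 and 0.0136 FPKM there. Prox1 was under 1 FPKM in every group. The part of lymphatic endothelium in the medial values of Icam1 and Vcam1 was not tested.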
